A study of Mus musculus with 12 samples.

Results

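The 10 genes described here are carried at high level by maturing neutrophils: S100a8, S100a9, Ltf, Camp, Ngp, Lcn2, Mmp8, Mmp9, Retnlg and Cxcr2. They were taken as a named list, and each was found by a probe set, the group of array probes for a transcript, that carries its symbol and no other. All 10 were measured, among 19935 genes, and each had 1 probe set. RNA came from CD71+ bone marrow cells of male mice aged 10 to 12 weeks, on a C57BL/6 background and with C57BL/6J as the labelled strain. CD71, the transferrin receptor, is abundant on red cell precursors, and cells carrying it were enriched on magnetic beads from crushed and strained hind-leg marrow.

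The 4 groups held 3 separate mice each, with 1 array per mouse. WT mice had neither change. CD70TG mice carried a CD70 transgene, with clone F13 named in the labels. Ifng-/- mice lacked the gene for interferon-gamma, a cytokine of activated lymphocytes. CD70TG*Ifng-/- mice carried the transgene and lacked the gene. The sources used here give neither the promoter that drives the transgene nor the deleted stretch of Ifng. CD70 is the ligand of CD27, a costimulatory receptor of lymphocytes. The design lets the transgene be compared with its own control both where Ifng is intact and where it is missing.

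Neutrophils form in the marrow from granulocyte progenitors, and their genes are switched on in waves. Promyelocytes make the serine proteases and myeloperoxidase of primary granules. Myelocytes and metamyelocytes then make the antimicrobial proteins of secondary granules, and band and segmented cells make gelatinase granules and the receptors that guide them into blood. Transcription factors of the C/EBP family and PU.1 act at many of these genes. The 10 genes belong to the later waves and are known as genes of granulocytes, not of the red cell precursors that CD71 marks. In bulk RNA, fewer cells of a type and less RNA per cell cannot be told apart.

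The promoters are described by sequence only, and no link between motifs and the members' values was tested. RefSeq promoter entries were found for 9 of the 10 genes, on mouse build GRCm38.p6, and the 250 bases before each annotated gene start were searched on both strands. S100a8 and S100a9 lie on chromosome 3 with 0 protein-coding genes between them. Camp, Ngp and Ltf share chromosome 9, with 8 protein-coding genes between Camp and Ngp and 20 between Ngp and Ltf. Mmp8 is also on chromosome 9, Lcn2 and Mmp9 are on chromosome 2, Cxcr2 is on chromosome 1 and Retnlg is on chromosome 16. The following 4 are the neighbouring S100 pair, the secondary granule gene with the most C/EBP-type matches, and a gene that holds both motifs. Capitals mark matches to a C/EBP-type motif, TTNNGNAA, or to a PU.1-type motif, GAGGAAG, on either strand (a match on the other strand reads as its reverse complement).
S100a8: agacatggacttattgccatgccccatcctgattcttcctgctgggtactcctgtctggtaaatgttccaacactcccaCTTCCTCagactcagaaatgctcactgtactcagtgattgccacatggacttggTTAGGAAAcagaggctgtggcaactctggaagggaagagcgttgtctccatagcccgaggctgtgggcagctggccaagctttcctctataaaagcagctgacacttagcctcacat
S100a9: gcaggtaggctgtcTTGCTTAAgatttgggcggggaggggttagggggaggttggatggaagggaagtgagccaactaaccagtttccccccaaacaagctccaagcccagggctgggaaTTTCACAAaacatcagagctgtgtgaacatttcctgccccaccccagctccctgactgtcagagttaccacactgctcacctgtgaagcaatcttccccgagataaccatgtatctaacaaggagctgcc
Ngp: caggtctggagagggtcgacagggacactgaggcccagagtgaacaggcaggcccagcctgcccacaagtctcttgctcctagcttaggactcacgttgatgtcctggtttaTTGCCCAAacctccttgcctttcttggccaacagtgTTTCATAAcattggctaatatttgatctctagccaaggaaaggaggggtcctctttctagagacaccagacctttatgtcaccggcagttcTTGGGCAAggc
Lcn2: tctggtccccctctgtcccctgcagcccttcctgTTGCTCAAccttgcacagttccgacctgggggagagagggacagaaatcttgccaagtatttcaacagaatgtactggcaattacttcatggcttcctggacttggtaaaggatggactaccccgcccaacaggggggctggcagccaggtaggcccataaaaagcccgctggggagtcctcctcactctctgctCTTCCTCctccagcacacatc
The stretches are chr3:90668821-90669070 on the + strand for S100a8, chr3:90695722-90695971 on the - strand for S100a9, chr9:110419558-110419807 on the + strand for Ngp and chr2:32387740-32387989 on the - strand for Lcn2, each written 5′ to 3′ along its gene. The C/EBP-type motif was present in 7 of the 9 member promoters and in 36.8% of 32851 mouse promoters of the same length. The PU.1-type motif was present in 3 of 9, those of S100a8, Mmp8 and Lcn2, and in 10.6% of all promoters. The promoters of Camp and Cxcr2 held neither motif, and those shown above were chosen partly by their matches. A match of letters is a description of the sequence and does not show that a factor binds there.

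The deposited values are log2 intensities in which each probe set was set to 0 at its median over the 12 arrays. A value of 1 is therefore a doubling over that gene's own median, and levels cannot be compared between genes. A rounding pattern in the deposited decimals still shows which probe sets lay at or above 8 on the original log2 scale in every usable array. S100a8, S100a9, Ltf, Ngp and Lcn2 did, 5 of the 10 members, against 2872 of all 19935 genes. The 17 measured red cell genes of a list of 24, among them Tfrc (which encodes CD71) and Klf1, all did too. The 7 primary granule genes measured did not, nor did any of 11 B cell or 9 monocyte markers.

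One array stood apart before any group was compared. Over all genes, Ifng-/- 2 correlated with its group mates at Pearson r = 0.0376 and 0.139, while the other 10 pairs of arrays within groups ran from 0.263 to 0.676. Along principal component 1 (39.3% of the variance) it lay at 3.34, the other 5 arrays of mice without the transgene lay between -24.65 and -12.54, and the 6 transgenic arrays lay between 6.39 and 21.09. Where the number of members called or their order of groups changed without this array, the value without it is given too. The probe set for Ifng passed in no comparison (limma adjusted p 0.507 to 0.871, arrays from -0.16 to 0.20), so it does not check the knockout label. Cd70 was 0.26 ± 0.12 higher (log2 ± SE, n = 3 against 3) in CD70TG than in WT mice, limma adjusted p = 0.180. Of 13 measured interferon-gamma response genes, 11 rose in CD70TG against WT mice, and 1, Gbp8, fell in CD70TG*Ifng-/- against Ifng-/- mice.

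S100a8 and S100a9 encode the 2 chains of calprotectin, a calcium- and metal-binding protein that fills the neutrophil cytosol and acts as an alarmin. S100a9 read 1.62, 1.43 and 1.51 for WT, -0.48, -0.12 and 0.02 for CD70TG, 1.96, -0.89 and 0.85 for Ifng-/-, and -0.63, -0.02 and -0.37 for CD70TG*Ifng-/-. The WT arrays were tightly grouped and lay above every transgenic array, and the Ifng-/- arrays spanned the whole range. S100a9 fell 3.29-fold in CD70TG against WT mice (-1.72 ± 0.46, log2 ± SE, n = 3 against 3, limma with Benjamini-Hochberg adjustment over all genes, adjusted p = 0.0299). S100a8 read 1.61, 1.41 and 1.08 for WT, -0.45, 0.04 and -0.04 for CD70TG, 2.04, -0.89 and 0.61 for Ifng-/-, and -0.62, -0.07 and -0.44 for CD70TG*Ifng-/-. Its pattern followed that of its neighbour, with WT and CD70TG arrays that did not overlap. Its difference was -1.52 ± 0.47 in CD70TG against WT mice and just missed the threshold of 0.05 (adjusted p = 0.0552).

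Lcn2, Ltf, Camp and Ngp are genes of secondary granules. Lipocalin-2, the product of Lcn2, binds bacterial siderophores, and lactoferrin, the product of Ltf, binds iron. Lcn2 read 1.05, 1.39 and 1.24 for WT, -0.40, -0.03 and -0.24 for CD70TG, 2.10, -0.83 and 0.80 for Ifng-/-, and -0.81, 0.03 and -0.43 for CD70TG*Ifng-/-. Ltf read 0.71, 1.18 and 0.97 for WT, -0.52, -0.07 and -0.41 for CD70TG, 1.98, -1.07 and 0.47 for Ifng-/-, and -0.87, 0.07 and -0.38 for CD70TG*Ifng-/-. For both, the 3 WT arrays lay above the 3 CD70TG arrays, and the Ifng-/- group held both the highest and the lowest array of the 12. Lcn2 was 2.74-fold lower in CD70TG than in WT mice (-1.45 ± 0.48, limma adjusted p = 0.0668) and Ltf 2.44-fold lower (-1.28 ± 0.50, adjusted p = 0.121), and neither passed.

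Camp encodes cathelicidin, a precursor of an antimicrobial peptide, and Ngp encodes neutrophilic granule protein. Camp read 1.08, 1.15 and 0.70 for WT and -0.24, -0.18 and 0.10 for CD70TG. Ngp read 0.95, 1.14 and 0.87 for WT and -0.45, -0.02 and -0.20 for CD70TG. Neither pair of groups overlapped. The Ifng-/- arrays of Ngp, at 2.00, -1.07 and 0.49, spanned 3.07 log2 units, more than in any other member and group. Camp was 2.12-fold lower in CD70TG than in WT mice (limma adjusted p = 0.122), the smallest difference of the list, and Ngp 2.31-fold lower (0.136).

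Mmp8, neutrophil collagenase, and Mmp9, gelatinase B, are metalloproteinases stored in granules. Mmp8 read 1.21, 1.55 and 1.12 for WT, -0.81, -0.05 and -0.54 for CD70TG, 2.24, -0.70 and 0.76 for Ifng-/-, and -0.87, 0.05 and -0.48 for CD70TG*Ifng-/-. It fell 3.39-fold in CD70TG against WT mice (-1.76 ± 0.49, limma adjusted p = 0.0355). Mmp9 read 0.67, 1.02 and 0.70 for WT, -0.24, -0.19 and -0.53 for CD70TG, 1.71, -0.38 and 0.36 for Ifng-/-, and -0.48, 0.07 and -0.07 for CD70TG*Ifng-/-. Its WT mean of 0.80 ± 0.19 (SD, n = 3) was the lowest of the list, and its difference of -1.12 ± 0.35 did not pass (adjusted p = 0.0559).

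Cxcr2 is the receptor for CXC chemokines that draws mature neutrophils out of the marrow. It read 0.91, 1.32 and 1.03 for WT, -0.45, -0.01 and -0.62 for CD70TG, 2.11, 0.01 and 1.02 for Ifng-/-, and -0.51, -0.11 and -0.43 for CD70TG*Ifng-/-. Here alone among the 10, every mouse without the transgene lay above every mouse with it, although Ifng-/- 2 did so by a narrow margin, 0.01 against -0.01. The share of all genes with this pattern was not counted. Cxcr2 fell 2.73-fold in CD70TG against WT mice (-1.45 ± 0.35, limma adjusted p = 0.0195). Retnlg, a resistin-like secreted protein of neutrophils, read 1.31, 1.64 and 0.97 for WT, -0.77, -0.04 and -0.92 for CD70TG, 2.13, -0.53 and 0.98 for Ifng-/-, and -0.69, 0.04 and -0.35 for CD70TG*Ifng-/-. With WT and CD70TG arrays well separated, Retnlg had the greatest difference of the list, 3.68-fold lower (-1.88 ± 0.46, adjusted p = 0.0200).

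**Figure D1:**
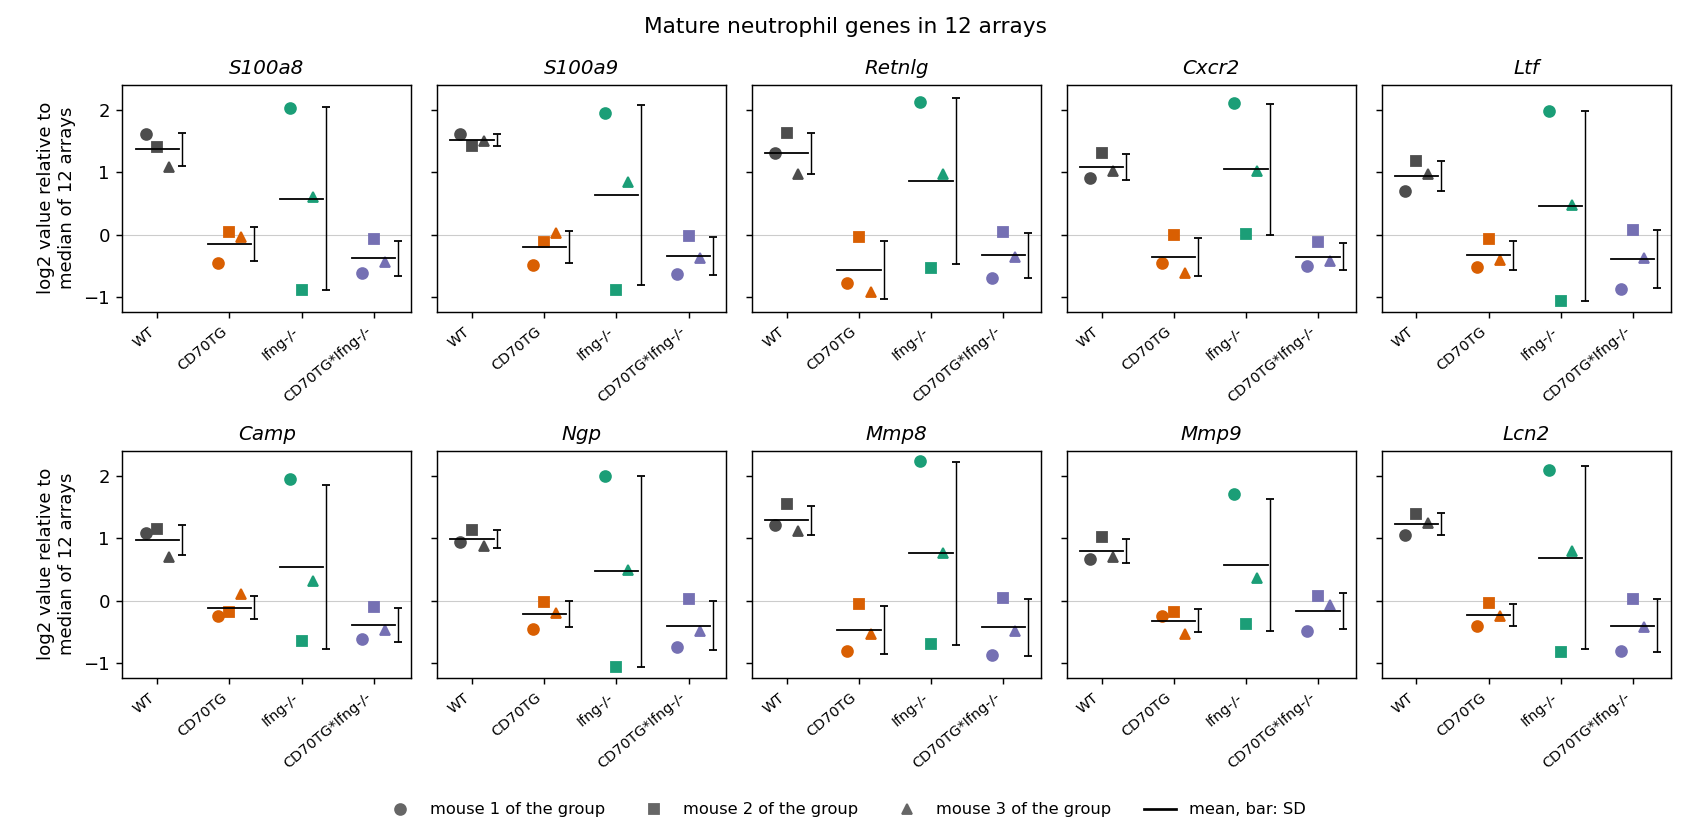
Each of the 10 genes in each of the 12 arrays, as the log2 value relative to that gene's median over the arrays; points are single mice, by group. WT arrays lie above CD70TG arrays in all 10 genes (and in 13.5% of all genes). Among the 12 arrays Ifng-/- 1 is the highest in all 10 and Ifng-/- 2 the lowest in 6, positions not counted over all genes.

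Against WT mice, CD70TG mice were lower in all 10 genes, with a median difference of -1.45, while the median over all genes was -0.02. S100a9, Retnlg, Cxcr2 and Mmp8 passed, 4 of 10, with 2.70% of all genes called lower in this comparison and 10.9% called in either direction. In all 10 genes the 3 CD70TG arrays lay below the 3 WT arrays, a pattern held by 13.5% of all genes. All 10 had an unadjusted p under 0.05, as did 26.3% of all genes. The number of members called turned on single mice and on the groups in the fit. It was 0 without WT 1, WT 2 or CD70TG 1, where 4.28%, 8.01% and 4.5% of all genes were called. It was 1 without WT 3 (6.85% of all genes) and 2 without CD70TG 2 (4.89%). It was 10 without Ifng-/- 1 (12.6%) or Ifng-/- 2 (13.6%). Mmp8 also did not pass without CD70TG 3 or CD70TG*Ifng-/- 3. The fit shares 1 estimate of spread over the 4 groups, and the member SEs of 0.35 to 0.50 there became 0.11 to 0.21 when the WT and CD70TG arrays were fitted alone, where all 10 passed and 12.3% of all genes were called.

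Without Ifng, the transgene comparison gave lower values in all 10 genes again, but no member passed. CD70TG*Ifng-/- mice differed from Ifng-/- mice by a median of -0.97 over the 10 genes and 0.04 over all genes. By limma, 0 of 10 were called, with 2.50% of all genes called, and 5 of 10 had an unadjusted p under 0.05, with 12.1% of all genes. Cxcr2 came nearest, 2.63-fold lower (-1.40 ± 0.35, adjusted p = 0.0538), and was the one member whose groups did not overlap, a pattern that 7.09% of all genes showed in this direction. Mmp8 was -1.20 ± 0.49 (adjusted p = 0.329), Retnlg -1.19 ± 0.46 (0.291), Lcn2 -1.09 ± 0.48 (0.369), S100a9 -0.98 ± 0.46 (0.416) and S100a8 -0.96 ± 0.47 (0.442). Camp, Ngp, Ltf and Mmp9 were between -0.93 and -0.73, with adjusted p from 0.398 to 0.528. Without Ifng-/- 2, all 10 were called (4.35% of all genes) and the median was -1.72. Without Ifng-/- 1 the median was -0.28 and 0 were called (1.61% of all genes). The comparison in mice lacking Ifng therefore rested on which Ifng-/- mice were in it.

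**Figure D2:**
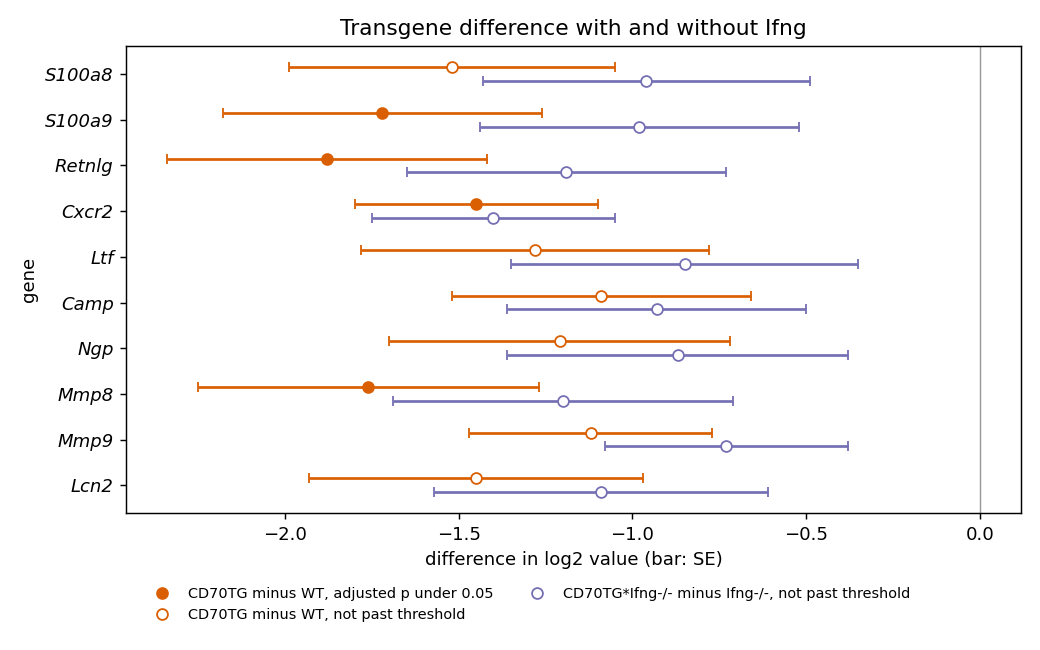
Log2 difference of each gene between mice with and without the transgene, with Ifng intact (CD70TG against WT) and missing (CD70TG*Ifng-/- against Ifng-/-); bars are standard errors from the 12-array fit, 3 mice per group. All 20 differences lie below 0, and the 4 that passed are S100a9, Retnlg, Cxcr2 and Mmp8 with Ifng intact.

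The test of whether the transgene difference depended on Ifng gave 0 of 10 members (limma adjusted p 0.517 to 0.961), with 1.89% of all genes called, and 0 of 10 at an unadjusted p under 0.05 (20.3% of all genes). Taken as the difference with Ifng intact minus that with Ifng missing, its median over the members was -0.41, and 0.26 without Ifng-/- 2, so it has no settled sign. A p that misses the threshold does not show that the differences were equal. Comparing Ifng-/- with WT mice, 0 of 10 members were called (adjusted p 0.402 to 0.969), with 0.00502% of all genes called, and 0 had an unadjusted p under 0.05 (13.8% of all genes). The median was -0.50 and turned to 0.23 without Ifng-/- 2. Comparing CD70TG*Ifng-/- with CD70TG mice, 0 of 10 were called (adjusted p 0.838 to 0.995), with 1.41% of all genes, and 0 had an unadjusted p under 0.05 (11.2%). Here 6 members were below 0 and 4 above, with a median of -0.10 that became 0.06 without CD70TG*Ifng-/- 1. These comparisons share groups with each other and with those of the transgene.

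Group means were ordered for the members only, so the counts of order have no share of all genes beside them. WT came first and Ifng-/- second in all 10 genes, an order that rested on Ifng-/- 2. Without that mouse WT came first in S100a8 and S100a9, and Ifng-/- came first in the other 8 genes. Without WT 2, Ifng-/- came first in 1 gene, Cxcr2. Both groups without the transgene lay above both groups with it in all 10 genes, and in 8 of 10 without Ifng-/- 1. CD70TG came before CD70TG*Ifng-/- in 6 genes, and after it in Retnlg, Cxcr2, Mmp8 and Mmp9, and leaving out 1 mouse made this number 4 to 8. Neighbours in these orders did not differ past the threshold, and the smallest limma adjusted p was the 0.0538 of Cxcr2 between Ifng-/- and CD70TG*Ifng-/- mice. Cxcr2 was, however, higher in Ifng-/- than in CD70TG mice, which are not neighbours for this gene (1.41 ± 0.35, adjusted p = 0.0429), 1 of 10 members called, with 3.25% of all genes. Without Ifng-/- 2 all 10 were called there, and without any 1 of the other 11 mice 0 were called. For the 4 genes in which CD70TG came last, the ends of the order are WT and CD70TG, whose differences are given above. For the other 6 the ends are WT and CD70TG*Ifng-/-. In that comparison all 10 members had 3 arrays below 3 (8.60% of all genes), with a median of -1.53. None was called, 0 of 10 (limma adjusted p 0.0563 to 0.203; 1.79% of all genes called), and 10 had an unadjusted p under 0.05 (16.1% of all genes). Without Ifng-/- 1 all 10 were called, and without Ifng-/- 2 there were 9. The share of all genes called with a mouse left out is not given for this comparison or for Ifng-/- against CD70TG.

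The 3 Ifng-/- mice differed far more from each other than did the mice of any other group. The mean over the 10 genes was 1.11, 1.32 and 1.02 for WT, -0.48, -0.07 and -0.34 for CD70TG, 2.02, -0.70 and 0.66 for Ifng-/-, and -0.68, 0.00 and -0.39 for CD70TG*Ifng-/-. In Ifng-/- mouse 1 all 10 genes were above every WT array and were the highest of the 12. In Ifng-/- mouse 2 all 10 were below every WT array, 6 were below every CD70TG array and 6 were the lowest of the 12. Ifng-/- mouse 3 lay below the WT arrays in 8 genes and above the CD70TG arrays in 10. These positions were counted for the members only and have no share of all genes beside them. Over all genes, too, Ifng-/- 2 stood apart from its group. The median SD of a member was 1.45 in the Ifng-/- group, against 0.22 in WT, 0.25 in CD70TG and 0.34 in CD70TG*Ifng-/- mice, while the median SD of all genes was 0.11 in the Ifng-/- group and 0.09 in each of the others.

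The 10 genes moved as a block from mouse to mouse. Over the 12 arrays the 45 pairs of members had Pearson r from 0.90 (Cxcr2 and Camp) to 0.99 (Ltf and Ngp), median 0.96. With group means removed the median was again 0.96. Much of that came from 1 group: over the 9 arrays outside the Ifng-/- group, with group means removed, r ran from 0.23 (S100a9 and Mmp9) to 0.99 (Ltf and Lcn2), median 0.75. These values describe arrays that share groups and normalization, and no test was made. Of all other named genes, Ly6g, the surface antigen used to identify mouse neutrophils, was most like the mean of the members (r = 0.989 over 12 arrays). Ankrd22, Pglyrp1, Anxa1, Ifitm6, Mcemp1, Itgam, Padi4, Lsp1 and S100a6 followed, at 0.985 to 0.973. With group means removed Ly6g led again (r = 0.992), and Ifitm6, Anxa1, Itgam and Pglyrp1 were again among the first 10, joined by Chil1, Rdh12, Cd177, Cebpe and Chil3. Ly6g itself read 1.01, 1.29 and 0.89 for WT, -0.28, -0.04 and -0.33 for CD70TG, 2.39, -0.72 and 0.68 for Ifng-/-, and -0.57, 0.04 and -0.50 for CD70TG*Ifng-/-. It was lower in CD70TG than in WT mice by a difference of -1.28 ± 0.50 that did not pass (limma adjusted p = 0.119).

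Genes of neighbouring stages were set beside the block. Of 13 other genes of the myelocyte and secondary granule stage, Lyz2, lysozyme, and Cyba, a subunit of the NADPH oxidase, fell in CD70TG against WT mice, by -1.25 ± 0.36 (limma adjusted p = 0.0414) and -0.77 ± 0.23 (0.0456), and the list median was -0.77. The same 2 fell in CD70TG*Ifng-/- against Ifng-/- mice, by -1.73 ± 0.36 (0.0179) and -1.31 ± 0.23 (0.00443), with a list median of -0.82. In the first comparison Cyba no longer passed when each array was centred on its median, and neither passed without any 1 of WT 1, WT 2, WT 3, CD70TG 1, CD70TG 2, Ifng-/- 3 or CD70TG*Ifng-/- 3, nor Cyba without CD70TG*Ifng-/- 1 or 2. In the second, Lyz2 did not pass without Ifng-/- 3 or CD70TG*Ifng-/- 1 or 3. The spread of the Ifng-/- mice bore on both counts: without Ifng-/- 2, 7 of the 13 fell with Ifng intact and 9 with Ifng missing, where the median became -1.42, and without Ifng-/- 1, 8 fell with Ifng intact, 2 with Ifng missing, and the latter median became -0.13. Of 27 measured genes of late neutrophils and their surface, out of 33 listed, 5 fell with Ifng intact (Mmp25, Clec4d, Ptafr, Wfdc21 and Slpi) and 4 with Ifng missing (Itgb2, Selplg, Ptafr and Il1b). The list medians were -0.50 and -0.64. Without Ifng-/- 2 the counts were 15 and 19 and the second median was -0.89, and without Ifng-/- 1 they were 17 and 4 and it was -0.23. With Ifng intact 1 or 2 fell on leaving out a WT mouse, CD70TG 1 or CD70TG 2, and 3 without Ifng-/- 3, CD70TG*Ifng-/- 1 or CD70TG*Ifng-/- 3. With Ifng missing 2 fell without CD70TG*Ifng-/- 3. Ptafr, the receptor for platelet-activating factor, was in both counts, at -0.66 ± 0.13 (0.00605) and -0.81 ± 0.13 (0.00197). It did not share the members' spread among Ifng-/- mice, where it read 0.51, 0.49 and 0.43. The mean of the members was -0.7 in Ifng-/- 2. Lyz2, Cyba, Itgb2, Selplg and Il1b read -0.04, 0.02, 0.09, -0.05 and 0.01 in that mouse, each the lowest of its Ifng-/- arrays. The part of other cells in the differences of these genes was not tested.

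Primary granule genes, the earlier wave, did not follow the 10 where Ifng was intact. In CD70TG*Ifng-/- against Ifng-/- mice 0 of the 7 were called, with a list median of -0.37. The test of whether the transgene difference depended on Ifng also called 0 of the 7, with a median of 1.38. By that test 5 had an unadjusted p under 0.05, and 1 was called without CD70TG*Ifng-/- 1. In CD70TG against WT mice Prtn3, proteinase 3, and Ms4a3 rose, 2 of the 7, by 1.08 ± 0.28 (limma adjusted p = 0.0265) and 1.03 ± 0.29 (0.0391), with a list median of 1.01. Of this list, Mpo, Prtn3, Ctsg and Ms4a3 fell in CD70TG*Ifng-/- against CD70TG mice, by -1.50 ± 0.34 (0.0419), -1.29 ± 0.28 (0.0343), -1.58 ± 0.32 (0.0245) and -1.34 ± 0.29 (0.0357). One mouse was high: the mean of the 7 was 1.56 in CD70TG 3, and 0.44 and 0.41 in the other CD70TG arrays. Without CD70TG 3 the differences of Prtn3 and Ms4a3 from WT became smaller, 0.69 and 0.57, and neither passed. Without WT 1 or WT 2 neither passed, with differences of 0.95 to 1.08, and Ms4a3 also did not pass without WT 3, Ifng-/- 3 or CD70TG*Ifng-/- 3. Without Ifng-/- 1 or Ifng-/- 2, 4 of the 7 rose. In CD70TG*Ifng-/- against CD70TG mice Ctsg alone of the 7 passed without CD70TG 3, where the 4 differences ran from -1.09 to -0.89. Ctsg alone also passed without WT 1, WT 3 or Ifng-/- 3, Ctsg and Prtn3 without WT 2, and 0 of the 7 without CD70TG*Ifng-/- 2 or 3. Across the 12 arrays the mean of this list had r = -0.02 with the mean of the 10 members, and the 13 secondary stage genes and 27 late genes had r = 0.96 and 0.97. High r was not particular to those lists. Of the other lists, relatives of the members had 0.95, eosinophil, basophil and mast cell markers 0.88, monocyte markers 0.84 and granulocyte transcription factors 0.83. Partners of the member proteins had 0.79, B cell markers 0.75, macrophage markers 0.72, the ligand list 0.71 and T and NK cell markers 0.63. Megakaryocyte markers had 0.30, interferon-gamma response genes -0.19 and red cell genes -0.39. The 8 granulocyte transcription factors measured, Cebpa, Cebpb, Cebpd, Cebpe, Gfi1, Spi1, Runx1 and Myb, had 0 calls by limma in each of the 5 comparisons, with between 0 and 2 at an unadjusted p under 0.05. Without Ifng-/- 2, 1 of these fell with Ifng intact and 2 with Ifng missing, and without Ifng-/- 1, 1 fell with Ifng intact.

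**Figure D3:**
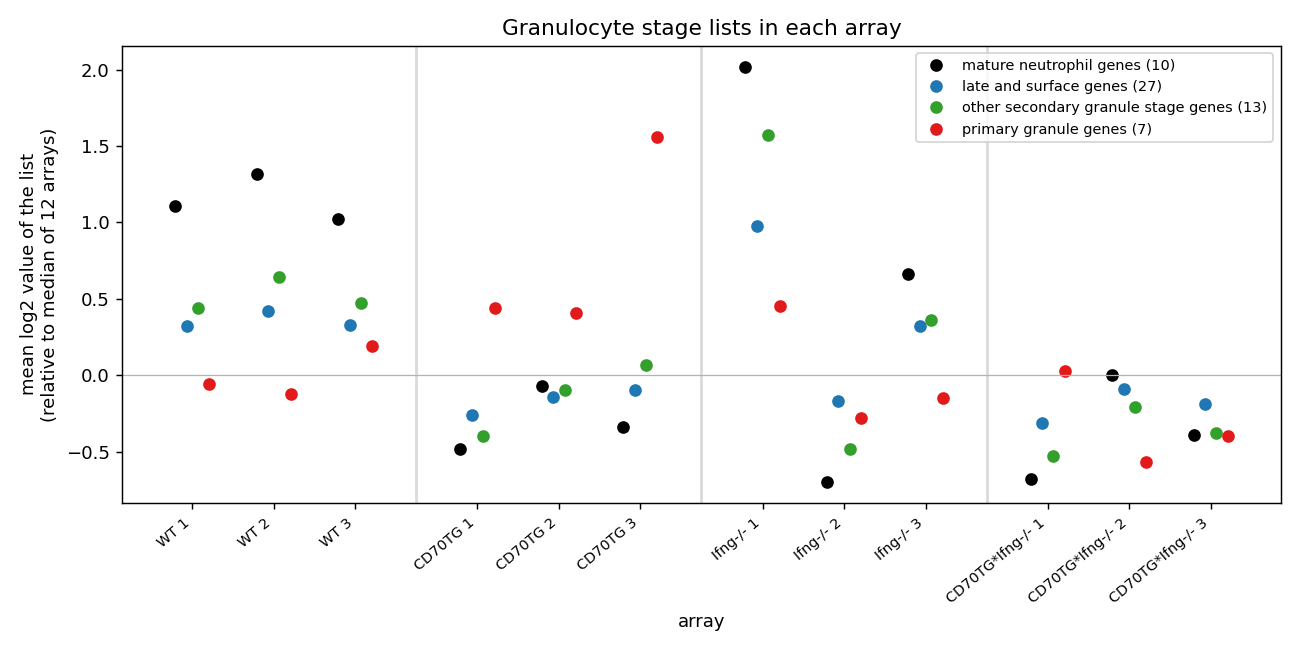
Mean log2 value, relative to the median of 12 arrays, of the 10 members and of 3 other granulocyte stage lists in each mouse. The secondary stage and late lists follow the members, while the primary granule list is at 1.56 in CD70TG 3 and between -0.57 and 0.45 in the other 11 arrays.

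Genes that act with the members' proteins were taken as lists of their own. Of 8 measured partners, Timp2, an inhibitor of metalloproteinases, and Tlr4, a receptor through which the S100a8 and S100a9 proteins can signal, fell in both transgene comparisons. Timp2 read 0.50, 0.83 and 0.35 for WT, -0.70, -0.51 and -0.47 for CD70TG, 1.04, 0.83 and 0.86 for Ifng-/-, and -0.78, -0.56 and -0.35 for CD70TG*Ifng-/-. Unlike the 10 members, it was high in Ifng-/- mouse 2. Its differences were -1.12 ± 0.13 (limma adjusted p = 0.000148) and -1.47 ± 0.13 (7.6e-06), and those of Tlr4 were -0.82 ± 0.14 (0.00253) and -1.40 ± 0.14 (2.43e-05). Of 9 genes for CXCR2 ligands, the CXCL12 and CXCR4 retention pair and G-CSF, 0 passed with Ifng intact (2 at an unadjusted p under 0.05), and Cxcl2, a CXCR2 ligand, fell with Ifng missing (-0.55 ± 0.13, 0.0298). Cxcl2 did not pass without Ifng-/- 1, Ifng-/- 3 or any 1 of the CD70TG*Ifng-/- mice, nor with the 2 groups fitted alone, and the largest adjusted p was 0.143. With Ifng intact 1 of the 9 fell without Ifng-/- 1 or Ifng-/- 2. Of 26 relatives of the members, Trf alone passed in the transgene comparisons. Without Ifng-/- 2, 3 fell in each, without Ifng-/- 1, 3 fell with Ifng intact, and without CD70TG 3, 2 did, while without WT 3 another 1 rose. Trf encodes transferrin, of the same family as lactoferrin, and fell by -2.35 ± 0.19 (9.34e-06) and -3.10 ± 0.19 (3.46e-07). Trf too was high in Ifng-/- mouse 2, at 1.55, where Ltf read -1.07.

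Markers of other cells moved with the same groups in some lists and hardly in others. All 15 macrophage markers fell in both transgene comparisons, with medians of -1.67 and -2.73, and all 15 did so in each alternative setting too. Their mean ran from 0.76 to 1.45 in WT, -0.98 to -0.79 in CD70TG, 1.16 to 1.46 in Ifng-/- and -1.34 to -1.25 in CD70TG*Ifng-/- mice. It read 1.16 in Ifng-/- mouse 2, where the mean of the neutrophil members was -0.70. Of 9 monocyte markers Csf1r fell in both comparisons, and the list mean ran from 0.09 to 0.24 in WT and -0.29 to 0.21 in CD70TG mice, so those groups overlapped. Of these 9, 3 fell with Ifng missing when Ifng-/- 2 was left out, and 2 with Ifng intact when CD70TG 3 or Ifng-/- 1 was. Of 11 eosinophil, basophil and mast cell markers 3 fell with Ifng intact and 1 with it missing (list means 0.16 to 0.39 in WT, -0.93 to -0.27 in CD70TG, -0.16 to 0.96 in Ifng-/-, and -0.40 to -0.15 in CD70TG*Ifng-/- mice), and without Ifng-/- 2 both counts were 4. Of 11 B cell markers 10 and 2 fell (0.12 to 0.51, -0.55 to -0.45, 0.04 to 0.37 and -0.16 to -0.03 in the same order). With Ifng missing 6 fell without Ifng-/- 2, and 1 fell without any 1 of the other mice but WT 2 and CD70TG 3. Of 11 T and NK cell markers Cd4 fell in both, and 1 rose with Ifng intact without Ifng-/- 1 or Ifng-/- 2. Of 8 megakaryocyte markers 0 passed (1 and 2 at an unadjusted p under 0.05), though 1 fell with Ifng missing when CD70TG 2 was left out. The 17 red cell genes had list means from -0.07 to -0.02 in WT, -0.22 to 0.01 in CD70TG, -0.10 to 0.07 in Ifng-/- and 0.02 to 0.08 in CD70TG*Ifng-/- mice. Of these, Alas2, Bpgm and Trim10 fell in CD70TG against WT mice. The part of any of these lists in the members' differences was not tested, and centred values do not show which markers were undetected.

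**Figure D4:**
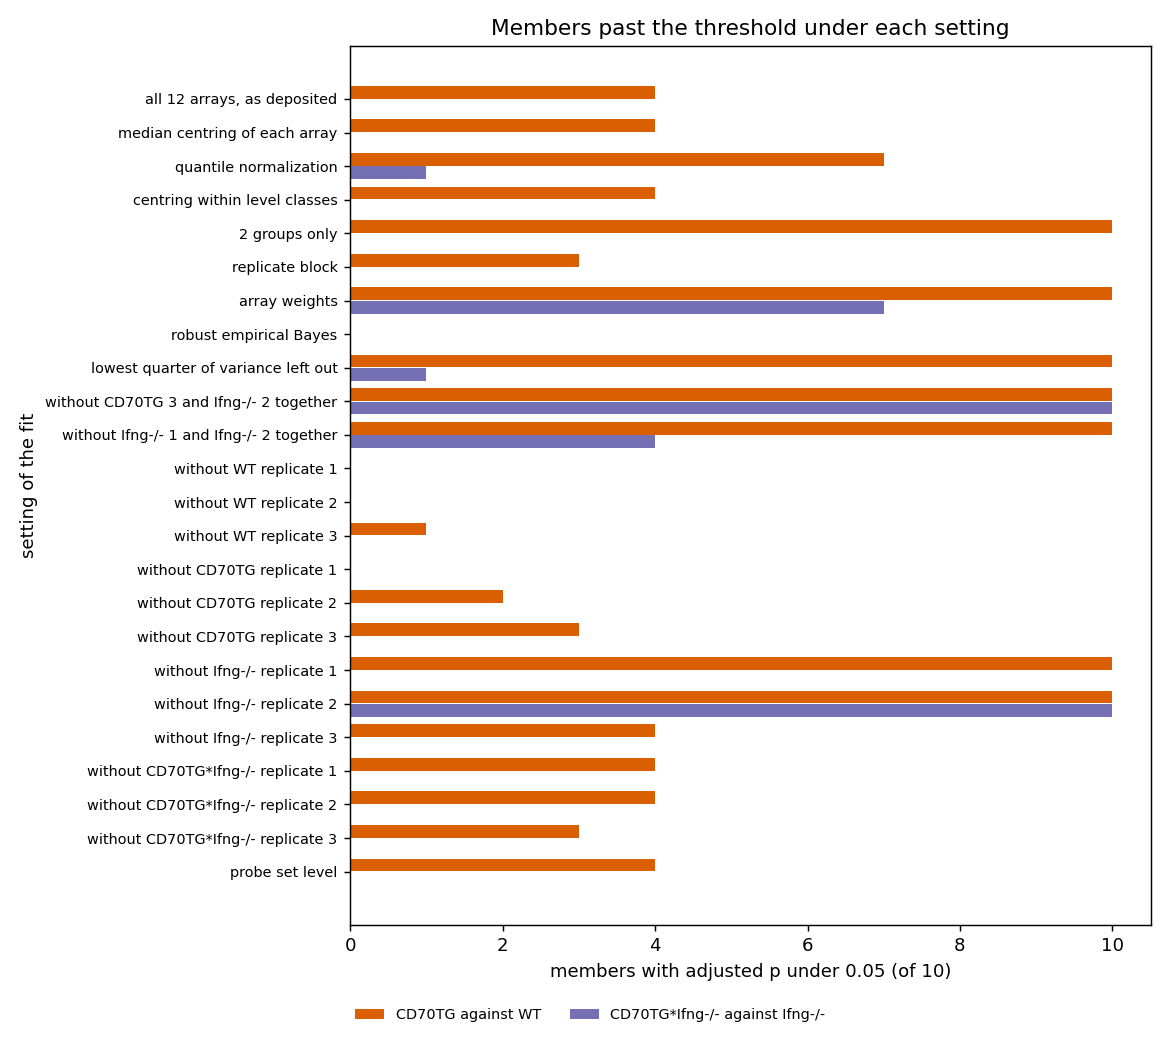
Number of the 10 genes that passed an adjusted p of 0.05 in each transgene comparison, under the reported fit and each alternative setting. With Ifng intact the count runs from 0 to 10, and with Ifng missing it is 10 only in the settings that leave out Ifng-/- 2 and keep Ifng-/- 1.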

How the data were processed

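Total RNA of 12 mice was hybridised to a 1-colour whole-transcript Affymetrix array. The authors deposited log2 values made with RMA, per the submitters' processing notes, which name no version. The deposited log2 values of each probe set have a median of 0 over the arrays, as checked on the table within 1e-06, so absolute levels and raw signal over background are not known. Of 28815 probe sets, 21780 had 1 gene symbol in the platform annotation, 1605 had several and 5430 had none, and the last 2 kinds were left out. Probe sets of a gene were averaged, giving 19935 genes. Array medians ran from -0.021 to 0.027.

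Groups came from the labels. limma 3.58.1 in R 4.3.3 (lmFit, then eBayes with 6.23 prior degrees of freedom beside the 8 residual ones) was fitted to all 12 arrays with a mean per group, p-values were adjusted by Benjamini-Hochberg over all genes, and the threshold was 0.05. An exact permutation of 3 against 3 cannot give a two-sided p below 0.1. The fit was also run on simulated data, with independent genes and 1 spread per gene shared by all groups. The members differed from that setting, so the run does not check their calls. The members and gene lists were chosen with earlier results of these data known. Named genes were all members, up to 4 of each list with the smallest moderated F p, Ly6g, Tfrc, Klf1, Ifng and Cd70, and the 10 most like the members. Others are named as members of a count, after their values were seen. Original levels of at least 8 were read from single precision rounding (191 of 204 ribosomal protein probe sets and 1 of 1035 olfactory receptor probe sets had it). Alternatives were other centring and normalization, fits on 2 groups, a replicate block, array weights, robust eBayes, a variance filter and leaving out mice.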

Additional observations from a re-analysis of the deposited data

How the results depend on the processing

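The member counts, the members' differences and medians, the named granulocyte and partner genes that passed, Ly6g, Cd70 and the list counts were recomputed under 23 alternatives. Leaving out Ifng-/- 1 and Ifng-/- 2 together, and running the alternatives on the list counts and on CD70TG*Ifng-/- against WT and Ifng-/- against CD70TG, was chosen after seeing the data. The correlations were recomputed only without the Ifng-/- group, and the group orders only with 1 mouse left out. The member differences kept their sign in all of them, from -2.15 to -1.0 for CD70TG against WT and from -1.93 to -0.10 for CD70TG*Ifng-/- against Ifng-/-. The number of members passing did not hold. The share of all genes called is not given for CD70TG*Ifng-/- against WT or Ifng-/- against CD70TG. For CD70TG against WT the number was 4 as reported, 7 after quantile normalization (7.98% of all genes called) and 0 with robust eBayes (11.2%). It was 10 with the 2 groups only (12.3%), with array weights (26.8%) and with the least variable genes left out (15.3% of those kept). It was also 10 without CD70TG 3 and Ifng-/- 2 together (18.5%). Without Ifng-/- 1 and Ifng-/- 2 together, which leaves 1 Ifng-/- mouse, the median difference was -1.45. Leaving out 1 mouse gave 0 to 10. For CD70TG*Ifng-/- against Ifng-/- it was 0 as reported, and 1 after quantile normalization (2.94%) and with the least variable genes left out (4.26% of those kept). It was 7 with array weights (7.22%) and 10 without CD70TG 3 and Ifng-/- 2 together (5.26%). Without Ifng-/- 1 and Ifng-/- 2 together the median difference was -1.09. Leaving out 1 mouse gave 0 to 10. For CD70TG*Ifng-/- against WT it was 0 as reported, 8 after quantile normalization and with the least variable genes left out, and 10 with the 2 groups only, with array weights and without CD70TG 3 and Ifng-/- 2 together. Leaving out 1 mouse gave 0 to 10. For Ifng-/- against CD70TG it was 1 as reported, 0 with the 2 groups only and with robust eBayes, 2 with the least variable genes left out, 6 with array weights, 10 without CD70TG 3 and Ifng-/- 2 together, and leaving out 1 mouse gave 0 to 10. For Ifng-/- against WT, CD70TG*Ifng-/- against CD70TG and the interaction, 0 members passed in every alternative. The median of the members turned to 0.23 for Ifng-/- against WT and to 0.27 for the interaction without CD70TG 3 and Ifng-/- 2 together. Leaving out 1 mouse moved these medians from -1.25 to 0.23 and from -1.14 to 0.26, and that of CD70TG*Ifng-/- against CD70TG from -0.30 to 0.06. The causes were not tested.

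Same-numbered mice of different groups showed no common deviation (r from -0.40 to 0.31 over 18 pairs). Pairs with other numbers ran from -0.52 to 0.53, and 2 of 12 arrays correlated best with their own number. So few pairs cannot exclude that the numbers pair the mice, and the reported fit treats the mice as unpaired. With the replicate number as a block, 3 members passed for CD70TG against WT, 0 for CD70TG*Ifng-/- against Ifng-/- and 0 for Ifng-/- against CD70TG, and the block gave 128 interaction calls over all genes in place of 377.

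Over all genes, the 2179 calls of CD70TG against WT became 853 without WT 1, 1366 without WT 3, 898 without CD70TG 1, 975 without CD70TG 2, 3686 without CD70TG 3 and Ifng-/- 2 together, and 5337 with array weights. The 499 of CD70TG*Ifng-/- against Ifng-/- ranged from 276 without Ifng-/- 1 and Ifng-/- 2 together to 1439 with array weights. The 282 of CD70TG*Ifng-/- against CD70TG ranged from 136 without CD70TG*Ifng-/- 3 to 3519 with array weights, the 1 of Ifng-/- against WT reached 42 without WT 2, and the interaction ranged from 39 without Ifng-/- 1 and Ifng-/- 2 together to 2040 with array weights. With 3 mice a group the number of arrays limits the precision.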
